A study of Mus musculus with 24 samples.

Results

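The HoxA genes Hoxa2, Hoxa3, Hoxa4, Hoxa5, Hoxa6, Hoxa7, Hoxa9, Hoxa10 and Hoxa11 were examined in mouse embryonic stem cells (ESCs) from which the Polycomb repressive complex PRC1 could be removed, or in which its catalytic activity could be switched off. These 9 members were taken by symbol from the 19409 gene symbols, in 20633 transcript rows, of a table of calibrated RNA-seq (cRNA-seq), in which Drosophila cells are added to each sample so that libraries can be scaled to cell number. Where a symbol had more than 1 row, the row with the largest summed level over the 12 libraries was used.

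The PRC1CKO cells (clone B9) are Ring1a-/- and Ring1bfl/fl and carry the inducible recombinase Rosa26::ERT2-Cre, so that they lack RING1A throughout and lose RING1B when Cre is activated. The PRC1CPM cells (clone 41) have the alleles Ring1aI50A/D53K together with Ring1b(WT->I53A/D56K)fl/fl, and the same Rosa26::ERT2-Cre. They carry a catalytically inactive RING1A throughout, and Cre turns their RING1B into the inactive I53A/D56K form. Both are E14 lines that were grown on gelatin in medium with serum and leukaemia inhibitory factor. Cre was activated over 72 h by 4-hydroxytamoxifen (OHT) at 800 nM, and untreated cells (UNT) of the same clone were the controls, with 3 replicates in each of the 4 conditions. The untreated cells of both lines are therefore not wild type, since each already has no active RING1A. No untreated or treated line without an engineered Ring1b was among the samples, so an effect of OHT or of Cre itself cannot be told apart from that of the Ring1b change. Each line is 1 clone, so that p-values describe the spread between replicate samples of these clones and not between clones, and a difference between the lines cannot be told apart from a difference between these clones.

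Hox genes encode homeodomain transcription factors that give cells their position along the head to tail axis and along the limbs. In mammals they lie in 4 clusters, and within a cluster the genes at the 3′ end are switched on early and in anterior tissue, whereas those at the 5′ end come on late and posteriorly, a relation known as collinearity. In ESCs the clusters are silent or nearly so and are classical targets of the Polycomb system. PRC1 ubiquitylates histone H2A at lysine 119 through RING1A or RING1B, and PRC2 methylates histone H3 at lysine 27.

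Following OHT treatment, HoxA transcripts increased in both lines. The summed level of the 9 genes, in normalised read counts (reads over the gene body divided by the spike-in size factor of the library), was 132.6, 74.6 and 22.0 in the untreated PRC1CKO libraries and 955, 742 and 728 after treatment. In the PRC1CPM line the sums were 30.7, 21.7 and 29.8 before treatment and 422, 277 and 314 after it. The treated libraries of each line lay above all untreated libraries, and those of PRC1CPM lay below those of PRC1CKO. Of all reads on genes, the 9 genes took 0.00387% in treated PRC1CKO cells and 0.00154% in treated PRC1CPM cells, so even the induced cluster was weakly transcribed. The row of Hoxa3 covers those of Hoxa4, Hoxa5 and Hoxa6, so reads there can enter these sums and shares more than once. In bulk RNA, a few cells with much HoxA RNA and many cells with little cannot be told apart.

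The libraries held 14668159 to 27016156 reads on genes. Mates of a pair appear to have been counted separately, since 80.2% of the 35529 values of 1 to 20 reads were even. Counting intervals given here are therefore too narrow and cover counting error only. For the same reason a floor of 3 reads can stand for fewer than 3 read pairs, so folds against it are not strict lower bounds. The ESC identity of the libraries was checked with 9 markers present in the table, none of which was at 0 in any library. Summed over these markers, of which the growth factor co-receptor gene Tdgf1 was the most abundant, the level ranged from 44880.3 in treated PRC1CPM replicate 2 to 104155 in untreated PRC1CKO replicate 1. Sox2 and Fgf4 fell in treated PRC1CKO cells and Fgf4 in treated PRC1CPM cells, and the other ESC markers did not pass the test in either line. Markers of fibroblasts, the usual feeder cells, were highest in replicate 1 of each condition and reached 14463 and 14740 in the untreated and treated PRC1CPM libraries of that replicate, with Col1a1 the most abundant. Replicate 1 also lay higher over all transcripts. Without the untreated replicate 1 of a line, the median log2 change of all transcripts after OHT went from 0.12 to 0.29 in PRC1CKO and from 0.10 to 0.21 in PRC1CPM. Without the treated one it went to 0.068 and -0.042. This shift was not separated from the fibroblast markers. The part of these markers in the results was not tested, and the HoxA counts without replicate 1 are given beside each comparison.

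All members lie on the minus strand of chromosome 6 (mm10), so that the cluster reads from Hoxa2 at low coordinates to Hoxa11 at high ones. Hoxa2 (NM_010451, chr6:52162417-52164831), which specifies the identity of the second pharyngeal arch and patterns the hindbrain, has the 3′-most start. Measured from there, the starts of Hoxa4, Hoxa5 and Hoxa6 lie at 26.87, 39.76 and 43.79 kb, and those of Hoxa7, Hoxa9, Hoxa10 and Hoxa11 at 53.74, 62.54, 76.02 and 80.98 kb. Hoxa3 (NM_010452, chr6:52169062-52213067), needed for thymus and parathyroid development, is the exception to a compact layout. Its row spans 44.006 kb and 5 exons, starts 48.24 kb from Hoxa2 and covers Hoxa4, Hoxa5 and Hoxa6 entirely. The other rows span 2.017 kb (Hoxa4) to 9.658 kb (Hoxa10), with 3 exons in Hoxa9 and 2 in each of the rest. Hoxa11 (NM_010450, chr6:52242105-52245810), which patterns the forearm and lower leg and acts in kidney and uterus, is the 5′-most member and shares 568 bases with Hoxa11os on the opposite strand.

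Start sites are shown for 3 genes picked from the comparisons: Hoxa2, which did not pass the test in PRC1CKO cells, and Hoxa10 and Hoxa11, which differed between the treated lines. Hoxa4 did not pass in PRC1CKO cells either, but no window was matched for it. Each is the window from 250 bases before to 50 bases after the start, on the minus strand, from RefSeq (GRCm38.p6), and capitals mark CpG dinucleotides, which are dense where Polycomb complexes bind. The windows are chr6:52164782-52165081 for Hoxa2, chr6:52240805-52241104 for Hoxa10 and chr6:52245761-52246060 for Hoxa11.
Hoxa2: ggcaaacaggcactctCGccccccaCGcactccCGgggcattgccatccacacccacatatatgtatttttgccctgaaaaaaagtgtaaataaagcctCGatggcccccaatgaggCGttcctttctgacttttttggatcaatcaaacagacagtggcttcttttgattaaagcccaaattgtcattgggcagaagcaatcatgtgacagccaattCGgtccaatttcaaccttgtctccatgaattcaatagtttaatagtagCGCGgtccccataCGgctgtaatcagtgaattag
Hoxa10: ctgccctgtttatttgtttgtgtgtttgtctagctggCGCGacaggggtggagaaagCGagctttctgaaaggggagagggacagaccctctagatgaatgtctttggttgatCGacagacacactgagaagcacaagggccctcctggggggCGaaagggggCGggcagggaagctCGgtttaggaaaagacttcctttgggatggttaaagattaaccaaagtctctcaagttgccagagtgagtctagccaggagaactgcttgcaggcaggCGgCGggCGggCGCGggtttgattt
Hoxa11: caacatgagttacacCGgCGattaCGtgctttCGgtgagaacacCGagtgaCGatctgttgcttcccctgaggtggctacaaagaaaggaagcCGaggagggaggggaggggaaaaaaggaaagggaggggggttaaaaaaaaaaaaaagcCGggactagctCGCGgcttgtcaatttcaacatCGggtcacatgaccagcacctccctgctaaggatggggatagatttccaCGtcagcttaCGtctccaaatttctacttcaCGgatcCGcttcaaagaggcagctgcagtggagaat
They held 9, 12 and 15 CpGs. RefSeq windows were matched for 8 of the 9 members, with 2 for Hoxa10, and these 9 windows held 4 to 29 CpGs with a median of 15, against a median of 7 over 32851 promoters of the same length. On either strand, the letters TATAAA of a TATA box were found in 1 member window, the second of Hoxa10 (13.6% of all promoters). TTTATG, the core of a CDX site, was found in that of Hoxa7 (11.9% of all), and TGATNNAT, a site for PBX with a HOX partner, in that of Hoxa2 (8.85% of all). TTTATG differs in 1 letter from TTTATA, the reverse complement of TATAAA, so that these motifs can share bases, whereas TGATNNAT is unrelated to both. These are matches of letters only.

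To ask how each gene responds when PRC1 is absent, treated PRC1CKO cells were compared with untreated ones by limma on log2(normalised read count + 1), with p-values adjusted by Benjamini-Hochberg over 16940 transcripts. Of the 9 members, 7 rose past an adjusted p of 0.05 and a 1.5-fold change, against 16.5% of all transcripts tested that were called higher. Hoxa2 and Hoxa4 did not pass. The median log2 fold change of the members was 2.91, against 0.12 over all transcripts, and ranged from 2.15 to 3.57 when 1 library was left out. Of the members, only Hoxa3 had enough reads in the untreated libraries alone to enter the test, and the other 8 entered through the treated libraries, so that the count of members called is a description.

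The 5′ genes changed most. Hoxa11 had no read in any untreated PRC1CKO library and 120.2, 65.7 and 96.8 normalised read counts after treatment, from 133, 71 and 111 reads. With the untreated group set at a floor of 3 reads over its libraries, the ratio was 99.3-fold, which is not a strict lower bound. The fitted log2 fold change was 6.53 (SE 0.65, limma adjusted p = 1.4e-11). Hoxa10, which patterns the lumbar region and the uterus, went from 8.94, 4.62 and 5.07 normalised read counts to 300.1, 249 and 230.3. Every treated library was far above every untreated one. Its log2 fold change was 5.22 (SE 0.50, limma adjusted p = 5.71e-12), and the ratio of summed reads was 45.5-fold with a 95% counting interval of 28.6 to 77.1.

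Hoxa9, a regulator of blood progenitors, stood at 14.9, 4.62 and 1.69 in untreated PRC1CKO libraries and at 127, 87.0 and 73.3 in treated ones, a log2 fold change of 3.92 (SE 0.55, limma adjusted p = 1.12e-07). Hoxa7, of the trunk group of Hox genes, went from 8.94, 2.31 and 0 to 59.7, 58.3 and 51.5, a change of 4.16 (SE 0.66, limma adjusted p = 1.39e-06). For both genes the untreated libraries were spread widely and every treated library lay above them.

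Towards the 3′ end, Hoxa3 had the most reads, with 61.1, 44.6 and 8.46 normalised read counts before and 251, 209 and 215 after treatment. It rose by 2.91 on the log2 scale (SE 0.43, limma adjusted p = 3.84e-07). Because its row covers 3 other members, 27.1% of its reads in treated PRC1CKO cells lay in the nested Hoxa4, Hoxa5 and Hoxa6 rows, and less these its mean was 23.9 before and 164 after treatment. These rows share its strand, so reads there cannot be assigned to Hoxa3 or to the nested gene. In both lines the values of Hoxa4, Hoxa5 and Hoxa6 may therefore include reads of Hoxa3 transcripts. Hoxa5, required for lung and neck to thorax patterning, went from 16.4, 8.47 and 0 to 43.4, 36.1 and 28.8 and rose by 2.74 (SE 0.71, limma adjusted p = 0.00277). Its call was lost without untreated replicate 3, the library with no Hoxa5 read (1.51, adjusted p = 0.145), and without the filter on low counts (adjusted p = 0.119). Hoxa6 went from 2.98, 0.770 and 1.69 to 11.8, 10.2 and 10.47, with a log2 fold change of 2.14 (SE 0.77, limma adjusted p = 0.0408). Both genes had no overlap between treated and untreated libraries, but Hoxa6 rested on 5 untreated and 36 treated reads and its call was lost in 9 of the 22 other settings in which it was tested.

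Hoxa4 and Hoxa2 did not pass the test. Hoxa4, a gene of cervical patterning, had 5.96, 6.16 and 0 normalised read counts in untreated and 14.5, 17.6 and 10.47 in treated PRC1CKO cells. Its libraries did not overlap, and the log2 fold change was 2.02 (SE 0.81, limma adjusted p = 0.0729). It passed in 7 of 26 other settings, among them the replicate block (adjusted p = 0.0199), PRC1CKO fitted alone (adjusted p = 0.0102) and the fits without untreated replicate 1 or 2 of this line (adjusted p = 0.0356 and 0.0191). Hoxa2 had 13.4, 3.08 and 5.07 before and 27.1, 9.26 and 11.3 after treatment. Here the highest untreated library lay above 2 of the treated ones, and the log2 fold change of 1.11 had a 95% interval of -0.38 to 2.59 (limma adjusted p = 0.368). It had 19 untreated and 53 treated reads in all, and the ratio of summed reads was 2.64 with a counting interval of 1.54 to 4.72, which leaves out the spread between replicates. A p that misses the threshold does not show that Hoxa2 did not change. Across members, treated and untreated PRC1CKO libraries did not overlap for 8 genes, all of them higher after treatment. Of all transcripts, 22.1% were higher and 8.52% lower without overlap. Without untreated replicate 3, the library with the least HoxA RNA of the PRC1CKO line, 5 members were called, and without replicate 1 of every condition 6 of the 8 that could be tested were.

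**Figure D1:**
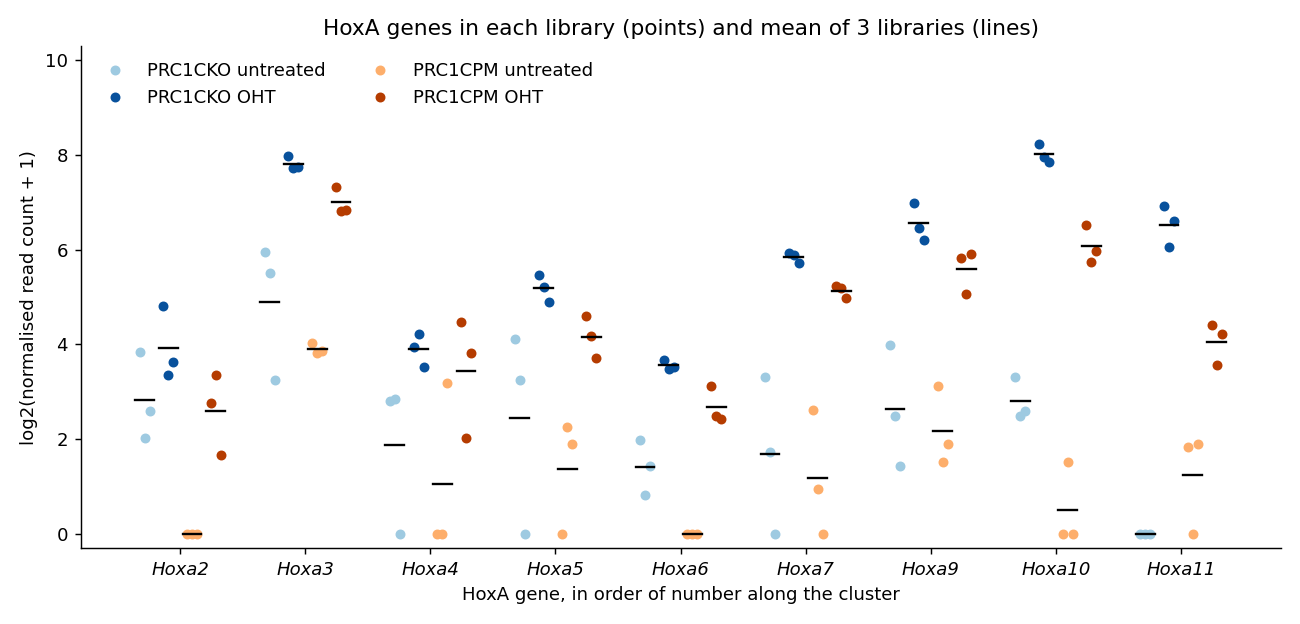
Level of each HoxA gene in each of the 12 libraries, as log2(normalised read count + 1) on the vertical axis, with the genes in order of paralogue number on the horizontal axis; points are libraries, coloured by condition, and short lines are means of 3. Treated libraries lie above untreated ones in most genes, and Hoxa10 and Hoxa11 show the widest separation in PRC1CKO cells.

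To ask whether the genes respond when PRC1 is present but inactive, treated PRC1CPM cells were compared with untreated ones. All 9 members rose, against 13.1% of all transcripts called higher, with a median log2 fold change of 2.82 against 0.10 over all transcripts. Setting the genes with no untreated read at the floor left this median and that of PRC1CKO unchanged, as it had to. With or without the floor, Hoxa2 and Hoxa6 lay below the median of PRC1CPM and Hoxa11 above that of PRC1CKO. As before, 8 of the 9 entered the test through treated libraries. The libraries did not overlap for 8 genes, all higher after treatment, and Hoxa4 was the exception. Among all transcripts, 18.7% were higher and 3.7% lower without overlap.

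Hoxa10 had 0, 1.88 and 0 normalised read counts before treatment and 90.7, 52.6 and 61.3 after it, the largest change of the members in this line at 5.57 on the log2 scale (SE 0.50, limma adjusted p = 3.69e-12). The untreated group held 2 Hoxa10 reads in all, and the ratio of summed reads had a counting interval of 23.7-fold to 721-fold. Hoxa11 had 2.56, 0 and 2.71 before and 20.3, 10.8 and 17.5 after treatment, a change of 2.82 (SE 0.65, limma adjusted p = 0.00106). Its treated libraries lay above the untreated ones, at a lower level than in treated PRC1CKO cells.

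Hoxa7 went from 5.11, 0.942 and 0 to 36.7, 35.6 and 30.7, and rose by 3.95 (SE 0.66, limma adjusted p = 8.07e-06). Hoxa9 went from 7.67, 1.88 and 2.71 to 55.99, 32.5 and 59.2, and rose by 3.42 (SE 0.55, limma adjusted p = 4.39e-06). Hoxa3 stood at 15.3, 13.2 and 13.6 and then at 160.2, 111 and 114, and rose by 3.09 (SE 0.43, limma adjusted p = 2.54e-07). In these 3 genes every treated library was well above the untreated ones, which for Hoxa3 were closely alike. Less the nested rows, the mean level of Hoxa3 was 9.16 before and 93.0 after treatment.

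The remaining genes were close to the limit of detection before treatment, as were Hoxa7, Hoxa10 and Hoxa11, with 5, 2 and 4 reads over the untreated group. Hoxa2 and Hoxa6 had no read in any untreated PRC1CPM library, and their treated levels were 5.79, 9.28 and 2.19 for Hoxa2 and 7.72, 4.64 and 4.38 for Hoxa6. Against the floor of 3 reads over the group, Hoxa2 was 5.31-fold higher and Hoxa6 4.78-fold higher after treatment (limma adjusted p = 0.00957 and 0.0105). These folds are likewise not strict lower bounds. Hoxa5 rose from 0, 3.77 and 2.71 to 23.2, 17.0 and 12.05 (log2 fold change 2.78, limma adjusted p = 0.00344), a call that was lost without the filter on low counts (adjusted p = 0.139). Hoxa4 had 0, 0 and 8.13 before and 21.2, 3.09 and 13.1 after treatment, so that 1 treated library lay below an untreated one (log2 fold change 2.38, limma adjusted p = 0.0355). The call of Hoxa4 was lost in 12 of the 25 other settings in which it was tested, that of Hoxa2 without treated replicate 2 (adjusted p = 0.0724) and that of Hoxa6 without treated replicate 1 (adjusted p = 0.0741). Without the replicate 1 libraries, 5 of 8 members were called in this line, namely Hoxa3, Hoxa7, Hoxa9, Hoxa10 and Hoxa11.

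**Figure D2:**
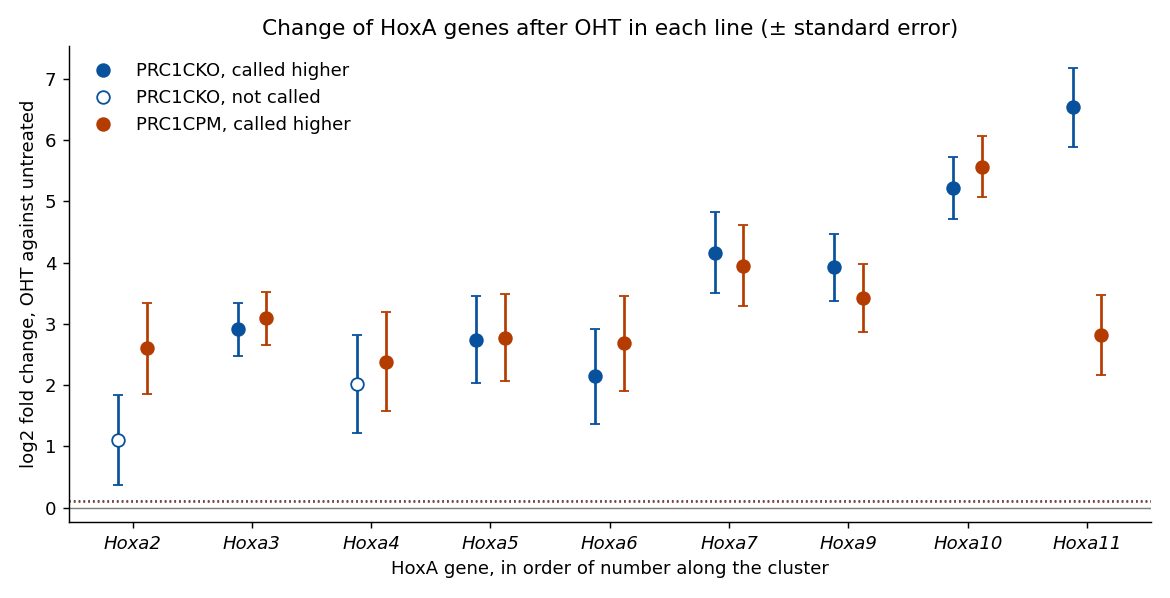
Log2 fold change of each member after OHT (vertical axis, error bars ± SE from limma) in PRC1CKO and PRC1CPM cells, with genes in paralogue order on the horizontal axis; filled points passed the test, open points did not, and dotted lines mark the median of all transcripts. The values of the lines lie near each other except at Hoxa2, where PRC1CPM is higher, and at Hoxa11, where PRC1CKO is higher, and in the fit plotted, on all 12 libraries with no replicate block, the interaction was called at neither.

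The treated lines were next compared with each other, which sets inactive PRC1 against no PRC1. This comparison uses the same treated libraries as those above. All 9 members had lower mean levels in treated PRC1CPM than in treated PRC1CKO cells, and 2 passed the test, Hoxa10 and Hoxa11, against 0.218% of all transcripts called lower in PRC1CPM and 1.25% called higher. The median log2 difference (PRC1CPM minus PRC1CKO) was -0.95, against 0.097 over all transcripts. Hoxa10 was lower by a log2 difference of -1.94 (SE 0.50, limma adjusted p = 0.0279), and the sum of its reads was 3.86-fold higher in PRC1CKO cells (counting interval 3.32 to 4.5). For Hoxa11 the difference was -2.47 (SE 0.65, limma adjusted p = 0.0316), and its summed reads were 6.01-fold higher in PRC1CKO cells (4.46 to 8.24).

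From Hoxa3 to Hoxa9 the differences were smaller and did not pass the test, at -0.82 for Hoxa3, -0.45 for Hoxa4, -1.04 for Hoxa5, -0.88 for Hoxa6, -0.70 for Hoxa7 and -0.95 for Hoxa9, with limma adjusted p from 0.495 to 0.974. Hoxa2 had -1.33 (limma adjusted p = 0.539). Treated libraries of the lines did not overlap for 7 members, all lower in PRC1CPM, with Hoxa2 and Hoxa4 the exceptions. Without overlap, 4.35% of all transcripts were lower and 11.9% higher in PRC1CPM. Hoxa6 reached 10 reads only in treated PRC1CKO libraries, and Hoxa2 and Hoxa4 passed the read filter only with these libraries. This favours lower values in PRC1CPM for these genes. With the replicate number as a block, Hoxa3 passed as well (SE 0.29, limma adjusted p = 0.035), and 1131 of all transcripts were then called higher and 232 lower in PRC1CPM. The calls of Hoxa10 and Hoxa11 were each lost in 11 of 25 other settings, including when any 1 of the 6 treated libraries was left out, with adjusted p from 5.53e-07 to 0.677 for Hoxa10 and from 3.26e-05 to 0.499 for Hoxa11 over all settings. Markers of other cell types also differed between the treated lines. Of 7 primitive endoderm markers, Gata6 (-1.78, limma adjusted p = 0.000388) and Pdgfra (-1.04, limma adjusted p = 0.0458) were lower in PRC1CPM, with a list median of -0.74. Of 4 tested fibroblast markers, Col1a1 was higher (1.44, limma adjusted p = 0.0203), with a list median of 0.59. Their part in the HoxA difference was not tested.

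A lower treated level does not show a smaller response, since the untreated levels differed too. In untreated cells, Hoxa10 was lower in PRC1CPM than in PRC1CKO, with a log2 difference of -2.29 (SE 0.50, limma adjusted p = 0.00426), as was Hoxa2 with -2.83 (SE 0.74, limma adjusted p = 0.0224), against 0.478% of all transcripts called lower and 2.21% called higher. The call of Hoxa2 was lost in 6 of 25 other settings, among them without PRC1CKO replicate 1 or 3 alone (adjusted p = 0.0638 and 0.0614), and that of Hoxa10 in 5, among them edgeR (adjusted p = 0.0707) and DESeq2 (adjusted p = 0.144). The other 7 members did not pass, and Hoxa11 had a difference of 1.24 in the opposite direction from 0 and 4 reads. Hoxa3 stood at -0.996 (limma adjusted p = 0.254, or 0.00553 with the replicate number as a block, with which 1631 of all transcripts were called higher and 253 lower). Without untreated PRC1CKO replicate 3 it was -1.83 and passed (adjusted p = 0.00609). Untreated libraries of the lines did not overlap for Hoxa2, Hoxa6 and Hoxa10, lower in PRC1CPM. Over all transcripts, 2.55% were lower and 9.23% higher in PRC1CPM without overlap. Without replicate 1, neither Hoxa2 nor Hoxa10 was called in this comparison or Hoxa10 and Hoxa11 in the treated one. Among the markers, Sox7 of primitive endoderm (-2.26), Sox1 of neural cells (-1.40) and Tfcp2l1 of ESCs (-0.88) were called lower and the fibroblast gene Col1a2 (1.38) higher in untreated PRC1CPM cells, and their part was not tested either. As the HoxA values lie at 0 to 18 reads per group for Hoxa10 and Hoxa11 and at 0 and 19 for Hoxa2, they are at the limit of the depth.

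The difference between the responses was tested as the interaction of line and treatment, in which no member was called and 0.0236% of all transcripts were called with a smaller change in PRC1CPM and 0.0% with a larger one. Neither edgeR nor DESeq2 called a member. The median over members was 0.18, against -0.018 over all transcripts, and its sign turned with the libraries used, from -0.35 to 0.63 when 1 library was left out and to -0.49 in replicates 2 and 3 alone. Hoxa10, despite its lower level in treated PRC1CPM cells, had an interaction of 0.35 (95% interval -1.08 to 1.78), and Hoxa3 had 0.18. Hoxa11 had the largest value at -3.71 (SE 0.92, 95% interval -5.56 to -1.86, limma adjusted p = 0.233). With the replicate number as a block it passed (SE 0.93, limma adjusted p = 0.00673), and 246 of all transcripts were then called with a smaller and 78 with a larger change in PRC1CPM. In replicates 2 and 3 alone it did not pass (-3.39, adjusted p = 0.521), nor did any of the 8 members tested there. Its untreated reads were 0 in PRC1CKO and 4 in PRC1CPM, which places the interaction on counts at or near the floor.

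To describe the levels by position, normalised read counts were divided by the length of each row in kb, since longer rows collect more reads. This length is the genomic span with introns, over which reads were counted, and it sets a gene with long introns such as Hoxa3 low when most of its reads are from exons. Per kb of span in treated PRC1CKO cells, Hoxa10 stood at 26.9, Hoxa11 at 25.4, Hoxa9 at 22.4 and Hoxa7 at 19.1, and each overlapped with its neighbour in this order. Hoxa5 followed at 12.7, and its libraries overlapped with neither Hoxa7 above nor Hoxa4 below. Hoxa4 at 7.03, Hoxa2 at 6.59, Hoxa3 at 5.11 and Hoxa6 at 4.78 were again not separated from their neighbours.

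In treated PRC1CPM cells Hoxa7 at 11.6 and Hoxa9 at 11.5 per kb were in front, with Hoxa10 at 7.06, Hoxa4 at 6.19, Hoxa5 at 6.14 and Hoxa11 at 4.37 behind them, and Hoxa3 at 2.92, Hoxa6 at 2.47 and Hoxa2 at 2.38 last. All neighbours in this order overlapped. Before treatment, Hoxa2 at 2.98 and Hoxa5 at 2.92 per kb of span led in PRC1CKO cells and Hoxa11 was at 0, whereas in PRC1CPM cells Hoxa4 at 1.34 led and Hoxa2 and Hoxa6 were at 0. In untreated cells only Hoxa10 and Hoxa11 in PRC1CKO, and Hoxa3 and Hoxa10 in PRC1CPM, were neighbours without overlap.

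The order depended on the length used. When the same counts were divided by the length of the exons alone, a choice made after seeing the data, Hoxa3 came second in treated PRC1CKO cells and first in treated PRC1CPM cells. Per kb of exon, Hoxa10 stood at 120.2, Hoxa3 at 88.5, or 64.5 less its nested rows, Hoxa11 at 41.2, Hoxa9 at 31.3 and Hoxa7 at 28.9 in treated PRC1CKO cells, and the other 4 members at 4.79 to 19.2. In treated PRC1CPM cells Hoxa3 was at 50.5, or 36.6 less its nested rows, Hoxa10 at 31.6, Hoxa7 at 17.6 and Hoxa9 at 16.1, with the other 5 at 2.48 to 9.27. The lowest values, 4.79 and 2.48, are those of Hoxa6, whose exon length does not match its counted row. Its exons span chr6:52204858-52208672, whereas reads were counted over chr6:52206365-52208624. Reads in introns were not separated from those in exons, so neither length gives the level of the mature transcript, and no order of levels along the cluster is read from them.

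**Figure D3:**
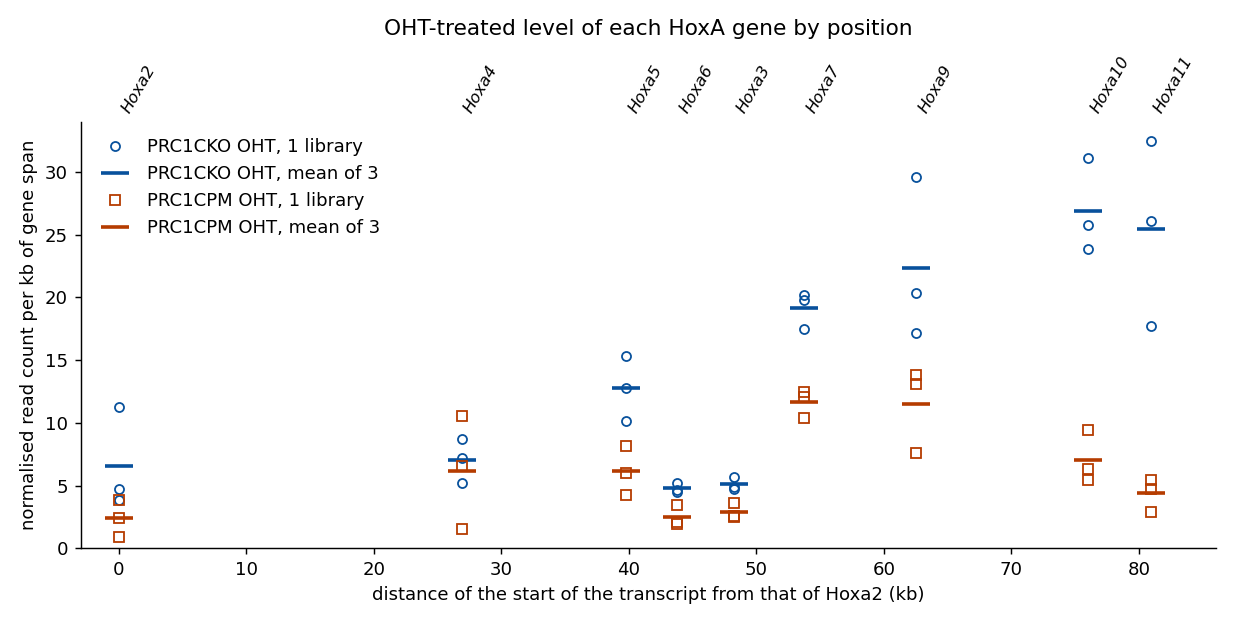
Normalised read count per kb of genomic span, introns included, of each member in treated cells (vertical axis) by distance of its start from that of Hoxa2 in kb (horizontal axis); points are libraries and bars are means of 3. In PRC1CKO cells the 4 members farthest from Hoxa2 have means between 19.1 and 26.9, and in PRC1CPM cells the mean of Hoxa11 is 4.37.

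Overlaps between rows bear on these values. Hoxa10 has a second, shorter row (NM_008263), which held 65.7% of the reads of the longer row in treated PRC1CKO cells and 70.6% in treated PRC1CPM cells, in 38.8% of its length. This row gave log2 fold changes of 4.92 and 5.58, but the difference between the treated lines was -1.82 with a limma adjusted p of 0.0637, which did not pass. Hoxaas3, an antisense transcript, spans Hoxa5 and Hoxa6 on the other strand. It had 54 reads over all libraries against 264 for these genes together, and it had fewer in 11 of 12 libraries and more in none, although counting on both strands of its span would give it at least as many. The study names a directional kit for its RNA libraries, but the strand setting of the count is not given in the sources used here. The values of Hoxa11 and Hoxa11os are read as those of separate strands on these grounds alone.

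The genes around the members were described from a list of 13, of which 11 had rows and 9 were tested. In PRC1CKO cells 4 of them were called higher and 1 lower, against 16.5% and 3.09% of all transcripts. In PRC1CPM cells 4 were called higher and 1 lower, against 13.1% and 1.4%. Hottip, a noncoding RNA whose start lies 97.944 kb from that of Hoxa2, was not tested, and had 2.98, 0 and 1.69 normalised read counts in untreated and 3.62, 5.55 and 10.47 in treated PRC1CKO libraries, and 5.11, 0 and 4.07 and then 9.65, 0 and 0 in PRC1CPM. Hoxa13, at the 5′ end and needed for digits and the urogenital tract, had no read in untreated PRC1CKO cells and 27.1, 31.5 and 30.5 normalised read counts after treatment. In PRC1CPM it had 0, 2.83 and 2.71 before and 28.0, 18.6 and 29.6 after treatment. Its treated libraries overlapped between the lines, with a log2 difference of -0.24 (limma adjusted p = 0.993), unlike the adjoining Hoxa11, though the difference between these genes was not tested.

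Hoxa11os, whose start lies 80.4 kb from that of Hoxa2 and close to that of Hoxa11, had 2.98, 0 and 1.69 normalised read counts in untreated PRC1CKO cells and none in untreated PRC1CPM cells. After treatment it had 175, 147 and 158 in PRC1CKO and 65.6, 27.1 and 39.4 in PRC1CPM cells, a log2 difference of -1.93 that did not pass (limma adjusted p = 0.0914). Treated PRC1CPM libraries were lower without overlap. Hoxa11os rose by 6.19 on the log2 scale in PRC1CKO (limma adjusted p = 4.65e-12). In PRC1CPM it was 36.9-fold higher after treatment against the floor of 3 reads, again not a strict lower bound. The fitted log2 fold change there was 5.40 (limma adjusted p = 6.88e-10), and those of Hoxa11 were 6.53 in PRC1CKO and 2.82 in PRC1CPM. Evx1, a homeobox gene 148.7 kb from Hoxa2, rose by 2.99 in PRC1CKO and by 2.16 in PRC1CPM cells (limma adjusted p = 0.00102 and 0.0286). Beyond the cluster on the 3′ side, the noncoding RNA Halr1 moved the other way. It had 1204, 706 and 831 normalised read counts in untreated and 306, 282 and 321 in treated PRC1CKO cells, and fell by 1.55 on the log2 scale in this line and by 0.76 in PRC1CPM (limma adjusted p = 2.89e-06 and 0.032). Skap2, Snx10, Hibadh and Tax1bp1, the flanking genes, were not called in either line, with log2 fold changes between -0.36 and 0.15. Jazf1, 903.8 kb away, rose by 1.61 and 0.86 in the respective lines.

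**Figure D4:**
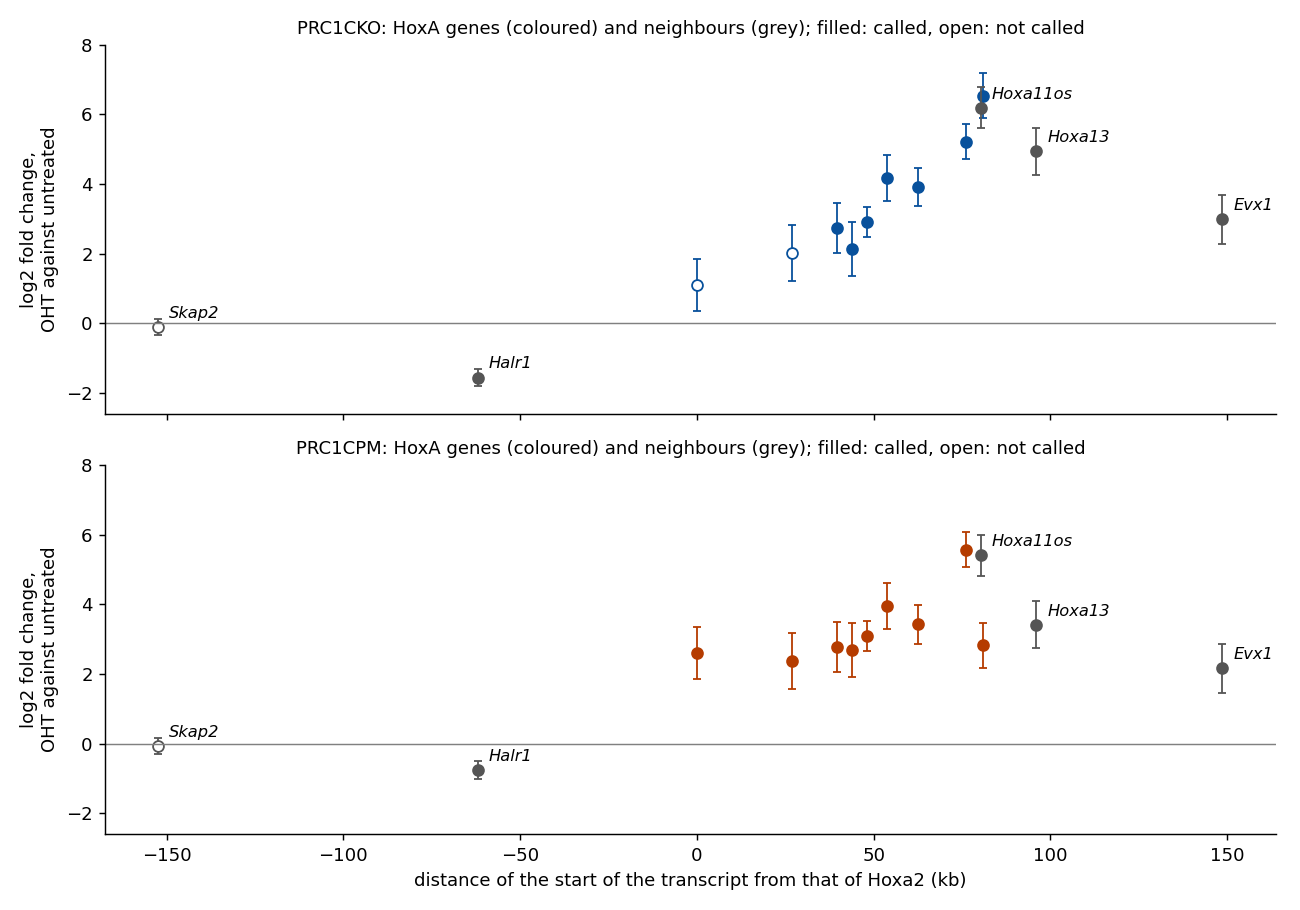
Log2 fold change after OHT (vertical axis, error bars ± SE) of the members, in colour, and of neighbouring genes, in grey, by distance of their start from that of Hoxa2 in kb (horizontal axis, within 170 kb) in each line. Halr1 lies below 0, Skap2 near 0 and the cluster genes above 0.

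The other Hox clusters are given beside HoxA, and no difference between clusters was tested. Over all transcripts 16.5% were called higher in PRC1CKO and 13.1% in PRC1CPM. HoxB had 5 of its 8 tested genes called higher in each line, with medians of 2.08 in PRC1CKO and 2.27 in PRC1CPM. HoxC had 9 of 9 and 6 of 9, with medians of 3.14 and 2.00, and HoxD had 9 of 9 in each line, with medians of 4.73 and 2.92. The HoxA medians of 2.91 and 2.82 lay within this range, and the levels in treated PRC1CPM were lower than in treated PRC1CKO by a median of -0.81 in HoxB, -1.34 in HoxC and -1.26 in HoxD.

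Paralogues of the 5′ members were set side by side. Hoxd11 had log2 fold changes of 6.64 in PRC1CKO and 3.53 in PRC1CPM, next to 6.53 and 2.82 for Hoxa11. Hoxc11 had 2.97 and 0.42, of which the latter did not pass (limma adjusted p = 0.85), and it was the single gene of the other clusters called lower in treated PRC1CPM than in treated PRC1CKO cells (-2.74, limma adjusted p = 0.0272). Among the group 10 genes, Hoxd10 had 5.05 and 2.52 and Hoxc10 had 3.23 and 2.00, whereas Hoxa10 had 5.22 and 5.57. Of the group 9 genes, Hoxa9 (3.92 and 3.42), Hoxc9 (3.55 and 2.25) and Hoxd9 (3.41 and 3.14) rose in both lines, and Hoxb9 was not called in either, at 0.11 and 0.24. The interaction was not called for any gene of HoxB, HoxC or HoxD.

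**Figure D5:**
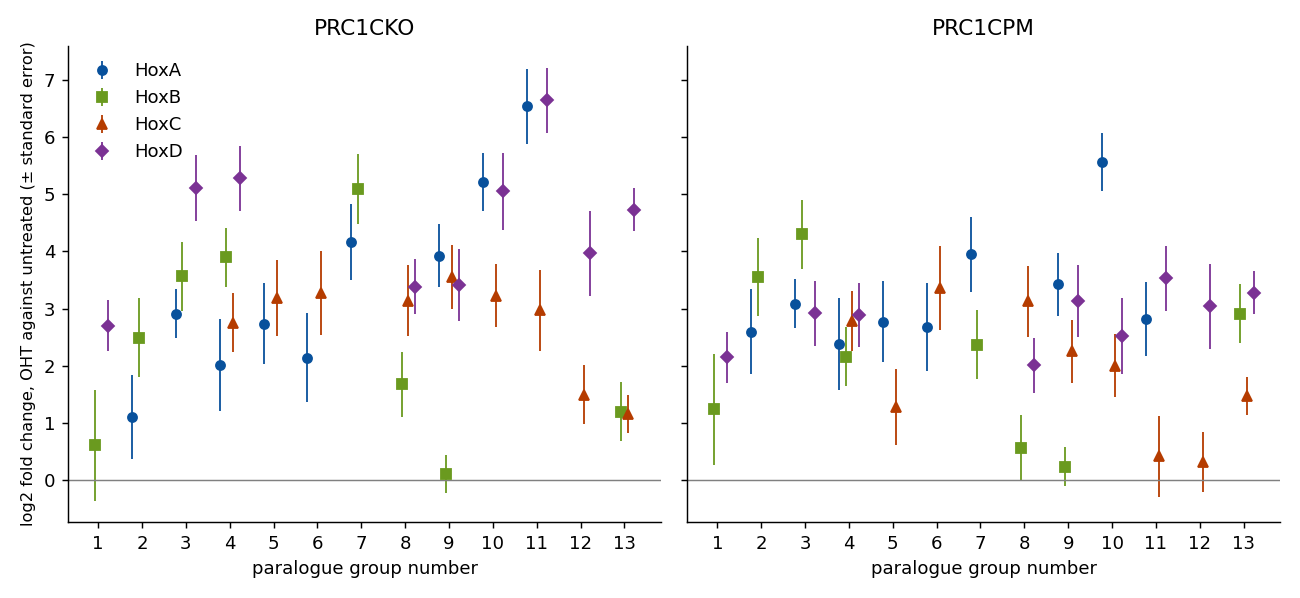
Log2 fold change after OHT (vertical axis, error bars ± SE) by paralogue number (horizontal axis) for the 4 Hox clusters in each line. In PRC1CKO cells the group 11 genes Hoxa11 and Hoxd11 have the highest values, at 6.53 and 6.64.

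Genes outside the HoxA region whose pattern was most like the median profile of the members, by root mean square difference of centred log2 levels over the 12 libraries, were Grin2a (0.51), Gata6 (0.56), Ccnb3 (0.63), Hoxb3 (0.64) and Foxa2 (0.66). Grin2a, an NMDA receptor subunit gene, had log2 fold changes of 3.18 and 2.75 in PRC1CKO and PRC1CPM. Gata6, a primitive endoderm regulator, had 2.96 and 2.26.

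The enzymes themselves were also read. Ring1, which encodes RING1A, had 227 ± 76.3 normalised read counts (SD, n = 3) in untreated and 253.5 ± 26.4 in treated PRC1CKO cells, although its first exons are deleted in this line. Rnf2, which encodes RING1B, had 1526 ± 201 and 1546 ± 50.8 in the same cells. Since reads were counted over whole gene bodies and not over the deleted or inverted exons alone, these counts do not check the genotypes. In PRC1CPM cells Ring1 had 162 ± 32.2 before and 140.1 ± 25.8 after treatment, and Rnf2 had 1696 ± 139.8 and 1511 ± 214.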

How the data were processed

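RNA was measured in 12 libraries of total RNA depleted of rRNA, with matched genomic DNA libraries (gDNA-seq) from the same cell mixes. The authors removed rDNA reads with Bowtie 2, aligned the rest to mm10 and dm6 with STAR and then Bowtie 2, kept unique reads without duplicates, counted them over the gene bodies of 20633 transcripts, and divided the counts by DESeq2 size factors from the Drosophila reads, corrected by the gDNA-seq. The deposited table gives the result as normalised signal, and its values times a size factor were whole reads in 100% of cases (tolerance 0.02). The deposited log2 fold changes and adjusted p-values, which the authors computed with DESeq2, and their list of partially derepressed genes were not used. The genomic DNA libraries themselves were not analysed here.

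The normalised signal was analysed as log2(value + 1) with limma 3.58.1 (R 4.3.3, 1 mean per condition, eBayes with trend) on the transcripts that reached 10 reads in 3 or more libraries. A call was an adjusted p under 0.05 with a change above 1.5-fold, or the adjusted p alone for the interaction. edgeR 4.0.16 and DESeq2 1.42.0 on the recovered reads, and other settings, were alternatives, and the code was tested on simulated data. Members, gene lists and tests were chosen with earlier results of these data known. All members were named, with the listed neighbours that had a row, the genes of the cofactor and Polycomb lists called in either line, and the 5 rows outside HoxA nearest in pattern. The other Hox clusters and the marker lists are given by counts, with examples chosen after their values were seen. A few list genes are not reported here and are left out of the list counts. Same-numbered replicates deviated together (mean correlation 0.205, against -0.102 for different numbers), with every pair above 0.1 except 1 of the PRC1CKO pairs (0.0988). The replicate block is therefore given beside the comparisons within PRC1CPM and between lines, and the interaction, where it changed a call. The labels give the numbers but not what they share.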

Additional observations from a re-analysis of the deposited data

How the results depend on the processing

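The comparisons within a line were repeated under 26 other settings and those between lines and the interaction under 25, of which 12 left out 1 library. Over members and comparisons, 1043 values kept their side of the threshold, 64 fell below it, 13 passed it and 0 calls reversed. The 1043 include values of members not called as reported, which cannot fall below the threshold. The 64 losses therefore fall on the called values alone, and their share of those is larger than of all values. Values that did not pass could change sign, such as Hoxa4 between the treated lines (-0.97 to 0.25) and the interaction of Hoxa10 (-0.27 to 2.52). For PRC1CKO the median log2 fold change of the members was 2.91, and 2.76 without the gDNA-seq correction, 3.88 with a pseudocount of 0.1, 2.65 in edgeR, 2.69 in DESeq2 and 3.91 in replicates 2 and 3 alone (chosen after seeing the data). For PRC1CPM it was 2.82, and 4.47 with that pseudocount, 3.60 in edgeR, 3.63 in DESeq2 and 3.26 with each line fitted alone, where 6 members were tested. In replicates 2 and 3 alone, 5 members were called in PRC1CPM, 0 between the treated lines and 0 between the untreated ones. Between the treated lines the 2 calls fell to 0 without the filter on low counts, with a pseudocount of 0.1, at an adjusted p under 0.01 and in limma's treat. Between untreated lines they fell to 0 without the filter and in treat, and to 1 in edgeR, in DESeq2 and at the adjusted p under 0.01. The median there was -0.996, and -1.26 without the gDNA-seq correction, -1.23 with a pseudocount of 0.1, -1.39 in edgeR, -1.41 in DESeq2 and -0.32 in replicates 2 and 3. With the 3 members that had no read in 1 of the untreated lines set at the floor, it was -0.82. The interaction median was 0.18, and 0.60 without the gDNA-seq correction, 0.58 in edgeR, 0.60 in DESeq2 and -0.49 in replicates 2 and 3. The replicate block added 1 interaction call, Hoxa11 (adjusted p = 0.00673), and it also added Hoxa4 in PRC1CKO (adjusted p = 0.0199) and Hoxa3 between the treated lines (adjusted p = 0.035) and between the untreated ones (adjusted p = 0.00553). It changed no call in PRC1CPM. The causes were not tested.

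Leaving out 1 library at a time gave 5 to 8 calls and medians of 2.15 to 3.57 in PRC1CKO, 7 to 9 calls and 2.65 to 3.15 in PRC1CPM, 0 to 2 calls and -1.16 to -0.78 between treated lines, 0 to 1 calls and -0.35 to 0.63 for the interaction, and 1 to 2 calls and -1.76 to -0.36 between untreated lines. The lowest count in PRC1CKO came without untreated replicate 3, where Hoxa5 and Hoxa6 were lost (adjusted p = 0.145 and 0.0908). Without the filter on low counts Hoxa5 was lost in both lines (adjusted p = 0.119 and 0.139). In PRC1CKO Hoxa6 was also lost without untreated replicate 2 of that line or treated PRC1CPM replicates 1 or 3 (adjusted p up to 0.171). Hoxa4 was lost in PRC1CPM without untreated replicates 1 or 2 or treated replicates 1 or 3 (adjusted p up to 0.245) and passed in PRC1CKO with that line fitted alone (adjusted p = 0.0102) and without untreated PRC1CKO replicates 1 or 2 or any untreated PRC1CPM library. Between untreated lines, Hoxa2 was lost without PRC1CKO replicate 1 (adjusted p = 0.0638) or 3 (adjusted p = 0.0614), and Hoxa3 passed without the latter (-1.83, adjusted p = 0.00609). The interaction of Hoxa11 passed without untreated PRC1CPM replicate 2 (adjusted p = 0.0125). With each line alone, the comparisons between lines could not be run.

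Without the gDNA-seq correction the median of all transcripts moved to 0.39 in PRC1CPM. Relative to that median the HoxA values were 2.80 in PRC1CKO and 2.72 in PRC1CPM, and 2.79 and 2.67 without the correction. Over all transcripts, calls ranged over settings from 1436 to 3729 higher and 84 to 1133 lower in PRC1CKO (2787 and 524 as reported), from 951 to 3428 and 32 to 595 in PRC1CPM (2226 and 237), from 28 to 1131 and 4 to 261 between treated lines (212 and 37), from 0 to 78 and 0 to 246 for the interaction (0 and 4), and from 51 to 1631 and 5 to 305 between untreated lines (374 and 81).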

Other observations

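Of 24 cofactors and upstream factors of Hox genes described, 12 rose and 1 fell in PRC1CKO, against 16.5% and 3.09% of all transcripts, and 11 rose and 0 fell in PRC1CPM, against 13.1% and 1.4%. The others did not pass the test. The list medians were 1.01 and 0.97 on the log2 scale, and the part of these genes in the HoxA values was not tested. Meis1, a homeodomain partner of HOX proteins, rose by 3.93 in PRC1CKO and 2.84 in PRC1CPM. Its relative Meis2 rose by 2.98 and 1.27, and was lower in treated PRC1CPM than in treated PRC1CKO cells (-2.84, limma adjusted p = 6.7e-09). Cdx1, a caudal-type regulator of Hox clusters, rose by 1.85 and 3.12, and Cdx2 rose by 1.71 in PRC1CPM and did not pass in PRC1CKO, though the difference between the lines was not called. Of the retinoic acid pathway, which activates 3′ Hox genes, Aldh1a2 rose by 2.42 and 2.00, Rxrg by 2.62 and 1.92, Cyp26b1 by 1.48 and 1.79, Rxra by 1.11 and 1.23, Rarb by 1.01 and 1.31 and Stra8 by 0.95 and 1.38. Pknox2 rose by 1.08 and 1.05. Meis3 and Cyp26a1 passed in PRC1CKO, and Rara fell by 0.84 there.

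Among 25 described genes of PRC1 and PRC2, 4 rose in PRC1CKO and 2 fell, and 4 rose and 1 fell in PRC1CPM. Of all transcripts 16.5% rose and 3.09% fell in PRC1CKO, and 13.1% rose and 1.4% fell in PRC1CPM, so the share of the list that rose was near the background. Bmi1 (2.43 and 1.33), Cbx8 (2.86 and 2.87), Phc2 (0.70 and 0.78) and Jarid2 (0.72 and 0.66) rose in both lines. Phc1 fell by 1.52 and 1.17, and Cbx7 fell by 0.64 in PRC1CKO.

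Markers of other cell types moved beside HoxA, and their part in its increase was not tested. Among all transcripts, 16.5% rose and 3.09% fell in PRC1CKO, and 13.1% rose and 1.4% fell in PRC1CPM. Of 7 primitive endoderm markers 4 rose in PRC1CKO and 6 in PRC1CPM, with Gata6 at 2.96 and 2.26 and Gata4 at 2.14 and 1.63, and Lama1 the most abundant. Summed, they stood at 9235, 5269 and 4705 normalised read counts in untreated and 9342, 7123 and 6876 in treated PRC1CKO libraries, and at 6307, 4786 and 5654 and then 7716, 4614 and 6917 in PRC1CPM. Of 5 neural markers, Pax6 (3.06 and 1.28), Neurog2 (2.66 and 2.53) and Olig2 (4.35 and 3.69) rose in both lines, and Tubb3 fell by 0.71 in PRC1CKO. Of 4 tested mesoderm markers, T (1.88 and 1.51) and Foxf1 (3.14 and 4.02) rose in both lines. Of 4 tested trophoblast markers, Eomes (1.57 and 1.31) and Hand1 (2.68 and 1.97) rose in both, Cdx2 rose in PRC1CPM and Tfap2c fell by 0.66 in PRC1CKO. Of 4 tested fibroblast markers, Thy1 rose by 0.65 in PRC1CKO and the others did not pass in either line.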
